A study of Mus musculus with 24 samples.

Results

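The comparison described here set the mature miRNAs in total RNA of 3T9 mouse fibroblasts after a pulse of 4-thiouridine (4SU) against those in total RNA of the same line without it. Members were the mature miRNAs with at least 50 counts in each of these libraries, which left 278 of the 1221 names in the count table. They held 99.9% of all miRNA counts in either library. The rule used abundance and not the difference between the libraries.

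3T9 cells are mouse embryo fibroblasts that have been made immortal by serial passage, and they were grown in DMEM with 10% serum. The labels give 300 µM 4SU for 3 h and then 1 mM uridine as the treatment of all samples, the unlabelled ones included, and do not state whether the pulsed cells of this comparison also received uridine. The series holds 24 small RNA libraries: 21 of bead-purified 4SU RNA (7 chase times from 0 to 12 h in 3 experiments), 1 of total RNA from unlabelled cells, 1 of total RNA from pulsed cells, and 1 mock purification from unlabelled cells (the negative extraction). Each total RNA group is thus a single library without a replicate: no test between them was possible, and what follows describes these libraries. Differences between cultures cannot be told apart from the pulse.

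4SU is a uridine analogue that cells take up and build into new RNA, where its thiol group allows coupling to biotin. Mature miRNAs are short RNAs cut from hairpin precursors by Drosha and Dicer. One strand of the duplex, the guide, is held by an Argonaute protein, and the other, the passenger, is mostly degraded. The guide finds its targets chiefly through its seed, bases 2 to 8. Guides are long-lived in most cells, so that a short pulse leaves much of the older pool in place, whereas passengers tend to turn over faster. High or long exposure to 4SU has been reported to disturb ribosomal RNA processing and to activate p53.

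Mature sequences from RefSeq (GRCm38.p6) were matched to 231 of the 278 members. Those shown belong to the miRNAs with the largest differences between the libraries, and to pairs and families whose members had unlike values. Each is written 5′ to 3′ with the seed in capitals. The first set holds miRNAs at the ends of the distribution, of which miR-10a-5p and both arms of miR-210 were higher in pulsed cells and the last 4 were lower.
miR-10a-5p: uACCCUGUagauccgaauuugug
miR-210-5p: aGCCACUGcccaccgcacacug
miR-210-3p: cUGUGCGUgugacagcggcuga
miR-205-5p: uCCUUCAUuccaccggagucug
miR-146b-5p: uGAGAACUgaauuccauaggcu
miR-676-3p: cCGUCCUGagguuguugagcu
miR-132-3p: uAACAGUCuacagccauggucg

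The second set holds miRNAs that share a seed and still had different values. They are the family of miR-99 and miR-100 (seed ACCCGUA), that of miR-148 and miR-152 (CAGUGCA) and the miR-19 pair (GUGCAAA).
miR-99a-5p: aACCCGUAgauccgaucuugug
miR-99b-5p: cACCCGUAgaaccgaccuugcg
miR-100-5p: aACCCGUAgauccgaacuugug
miR-148a-3p: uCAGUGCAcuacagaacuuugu
miR-148b-3p: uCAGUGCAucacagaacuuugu
miR-152-3p: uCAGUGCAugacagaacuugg
miR-19a-3p: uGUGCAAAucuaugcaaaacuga
miR-19b-3p: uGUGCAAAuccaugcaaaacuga

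The third set holds both arms of hairpins whose arms had different values, namely let-7e, miR-877 and miR-335.
let-7e-5p: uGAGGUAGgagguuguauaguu
let-7e-3p: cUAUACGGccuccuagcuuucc
miR-877-5p: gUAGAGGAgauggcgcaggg
miR-877-3p: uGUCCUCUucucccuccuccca
miR-335-5p: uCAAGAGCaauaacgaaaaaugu
miR-335-3p: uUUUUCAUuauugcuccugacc

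The total RNA libraries held 6412428 miRNA counts without 4SU and 4525638 with it, the labelled libraries 1133048 to 7886484 and the negative extraction 283922. Levels are given as CPM, counts divided by a library's summed miRNA count and scaled to a common total of 1000000. Both total RNA libraries carried the same code in the file header, which no labelled library had and which the labels do not explain, so purified and total RNA differ in that code too. All 15 fibroblast and mesenchymal miRNAs in the table had counts in both libraries, with a sum of 456150 CPM without and 401720 CPM with 4SU. Of markers of other cells, the 11 blood miRNAs summed to 496.4 and 536 CPM, nearly all of it miR-486a-5p and miR-486b-3p, while miR-223-3p was at 0 in both. The 12 neural miRNAs summed to 860 and 877 CPM. The 14 of liver and kidney summed to 674 and 1199 CPM, most of it miR-192-5p with 592 and 1086 CPM. The 9 muscle miRNAs summed to 3.74 and 11.7 CPM and the 6 of embryonic stem cells to 0.156 and 0.442 CPM. The 11 epithelial miRNAs summed to 187 and 33.6 CPM, of which miR-205-5p made up 182 and 30.9, and miR-200a-3p and miR-429-3p were at 0 in both libraries. In bulk RNA, fewer cells of a kind and less of a miRNA per cell cannot be told apart.

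The 10 most abundant miRNAs, by the mean of both libraries, all lay within 1.5-fold between pulsed and unlabelled cells when scaled by total counts. With TMM, a scaling that trims extreme ratios, 2 of them, let-7f-5p and miR-182-5p, were at least 1.5-fold lower, and with scaling by the upper quartile of the counts 5, with miR-22-3p, miR-21a-5p and let-7i-5p added. miR-22-3p, the most abundant, had 192630 CPM in unlabelled and 169206 CPM in pulsed cells (log2 ratio -0.19). miR-21a-5p, which is raised in activated fibroblasts and many tumours, had 134101 and 110089 CPM (log2 -0.28). miR-143-3p, an inhibitor of proliferation in mesenchymal cells, had 92715 and 94688 CPM (log2 0.03). The first and second were thus slightly lower in pulsed cells and the third level. miR-27b-3p was also nearly level, with 69338 and 68326 CPM. miR-92a-3p of the miR-17-92 cluster was higher in pulsed cells, with 58755 and 74624 CPM (log2 0.34), and miR-30a-5p was at 17008 and 20243 CPM (log2 0.25). let-7f-5p, let-7i-5p, miR-182-5p and miR-26a-5p had log2 ratios of -0.44, -0.29, -0.35 and -0.09. Of the 10 most abundant miRNAs 3 had a ratio above 1, and together the 10 took 70.8% of the counts without 4SU and 65.3% with it.

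Below these leading miRNAs most values were higher after the pulse. At least 1.5-fold higher were 86 members (30.9% of the 278) and at least 1.5-fold lower 17 (6.12%), and 175 lay within that range. A log2 ratio above 0 was found for 208 members and one below 0 for 70. The median log2 ratio was 0.35, with quartiles of 0.00 and 0.66. Counting error was small beside these differences: the exact 95% counting interval excluded a ratio of 1 in 226 members, among them all 86 and all 17 past 1.5-fold. Such intervals cover counting error only, since the reads carry no molecular identifiers.

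**Figure D1:**
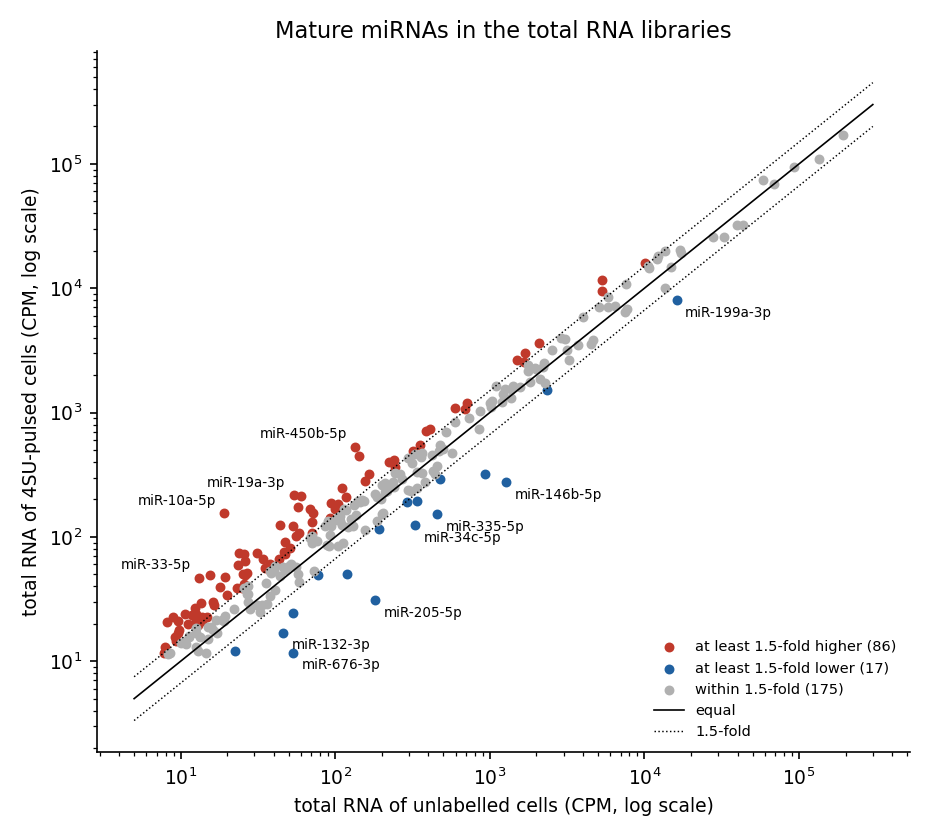
CPM of each of the 278 members in total RNA of unlabelled cells (horizontal axis) and of 4SU-pulsed cells (vertical axis), both on log scales; each point is a miRNA in 1 library per condition, coloured by whether it lay 1.5-fold or more above (86) or below (17) equality. The most abundant miRNAs sit near the line of equality, while miR-10a-5p stands farthest above it and miR-205-5p farthest below.

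The split of higher against lower depended on how the libraries were scaled. With total counts, 83.5% of the miRNAs past 1.5-fold were higher. Scaling by TMM moved every log2 ratio by -0.29 and left 41 higher and 40 lower (50.6% higher). Upper-quartile scaling moved every ratio by -0.40 and left 29 higher and 51 lower (36.25% higher). Measured from the median of the members, 34 were at least 1.5-fold above and 46 at least 1.5-fold below it. Log2 ratios between 0 and 0.40 therefore change sign with the scaling, those of miR-92a-3p and miR-30a-5p included, whereas the order of the miRNAs does not.

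Ratios also differed with abundance. In the 69 least abundant members, with a mean of 9.75 to 37.8 CPM, the median log2 ratio was 0.55 and 31 were higher against 3 lower. In the next 2 groups by abundance the medians were 0.49 and 0.27. In the 70 most abundant, above 775 CPM, the median was 0.21, with 10 higher and 3 lower. The rule of 50 counts bears on the scarce end, because it stands for 7.80 CPM in the unlabelled and 11.05 CPM in the pulsed library. Of the 15 miRNAs that met it in unlabelled cells only, 11 were at least 1.5-fold lower, and the 8 that met it in pulsed cells only were all higher. Meeting the rule in 1 library only favours miRNAs that are high there. For the 8 it fixes a ratio above 1, since at least 11.05 CPM stand against fewer than 7.80 CPM. These directions are therefore no separate result.

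The labelled libraries gave the only measure of how far repeat libraries of this series lie apart. Over 21 pairs of labelled libraries of the same chase time and different experiments, the median absolute difference of log2(CPM + 1) over the 278 members ranged from 0.286 to 0.696, with a middle value of 0.476. Between the total RNA libraries it was 0.451, below that of 11 of the 21 pairs. The median difference between pulsed and unlabelled cells thus lay inside the range of the same-time pairs of purified libraries. For 35 members, 28 higher and 7 lower after the pulse, the difference was larger than in any of the same-time pairs. The 7 lower ones were miR-205-5p, miR-146b-5p, miR-676-3p, miR-148a-3p, miR-132-3p, miR-34c-5p and miR-181d-5p. All these values are with total counts, and both the split and the names depend on that scaling. miR-1198-5p, 1 of the 28, had a log2 ratio of 0.44, or 0.15 with TMM, and a largest same-time difference of 0.298. let-7i-5p, not among the 35, was at -0.58 with TMM, against 0.41. Members were chosen by their counts in the total libraries only. Some were scarce in purified RNA, such as miR-33-5p with 0 to 2.18 CPM, where counting error is larger. The purified libraries are also another kind of RNA, so this is a yardstick and not a replicate error.

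miR-10a-5p, encoded within the Hoxb cluster (chr11:96317186-96317208, plus strand, GRCm38, outside other annotated genes), had the highest ratio. It had 19.2 CPM (123 counts) in unlabelled and 156 CPM (706 counts) in pulsed cells, a log2 ratio of 3.02 (95% counting interval 2.75 to 3.31). In the 21 labelled libraries, also from pulsed cells, it ranged from 9.27 to 22.3 CPM. The pulsed total library was thus the only one of these 23 in which miR-10a-5p stood high.

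miR-210, the miRNA most regularly induced by hypoxia through HIF, was higher in both arms (chr7:141221407-141221466, minus strand, outside other genes). The 3p arm, its guide, had 142 and 448 CPM (log2 1.66, 1.55 to 1.77). The 5p arm had 60.4 and 214 CPM (log2 1.83, 1.66 to 2.00). The arms moved alike, with total counts by more than in any same-time pair of labelled libraries. With TMM their log2 ratios of 1.37 and 1.54 lay just under the largest same-time differences of 1.40 and 1.57. Both pulsed totals lay above the labelled maxima of 83.8 and 80.5 CPM.

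miR-19a-3p, a member of the miR-17-92 cluster (chr14:115044048-115044070, plus strand, exon of Mir17hg), had 54.0 and 216 CPM, a log2 ratio of 2.00 (1.82 to 2.18). miR-450b-5p (chrX:53048044-53048065, minus strand), of a cluster with miR-351 and miR-322, had 135 and 532 CPM (log2 1.98, 1.87 to 2.09). miR-33-5p, an inhibitor of cholesterol export encoded in an intron of Srebf2 (chr15:82198127-82198147, plus strand), had 13.1 and 46.8 CPM (log2 1.84, 1.47 to 2.22). All 3 were lower in every labelled library than in either total library, with labelled maxima of 13.7, 45.1 and 2.18 CPM.

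The remaining high ratios belonged to scarce miRNAs. miR-877-3p, from a mirtron (a hairpin made by splicing and not by Drosha) in Abcf1, had 15.6 and 49.1 CPM (log2 1.65). let-7f-2-3p, a passenger from an intron of Huwe1, had 23.7 and 74.0 CPM (log2 1.64). miR-129-5p, best known in brain, had 57.5 and 175 CPM (log2 1.60). Its other arm, miR-129-2-3p, was higher as well, with 25.9 and 64.1 CPM. miR-7a-5p, also a neural and endocrine miRNA, had 25.6 and 72.3 CPM (log2 1.498), inside its labelled range of 8.28 to 175 CPM.

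miR-205-5p, an epithelial miRNA that represses Zeb factors (chr1:193507503-193507524, minus strand, exon of 4631405K08Rik), had the lowest ratio of the members. It had 182 CPM (1166 counts) in unlabelled and 30.9 CPM (140 counts) in pulsed cells, a log2 ratio of -2.56 (-2.82 to -2.30). The labelled libraries had 198 to 1150 CPM and the negative extraction 648 CPM. The pulsed total library was therefore the lowest of all 24.

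miR-146b-5p, which is induced by NF-kB and dampens its signalling (chr19:46342790-46342811, plus strand, intron of Mfsd13a), had 1277 and 274 CPM (log2 -2.22, -2.31 to -2.13). The labelled libraries had 1075 to 3013 CPM. miR-676-3p (chrX:100381151-100381171, plus strand, intron of Eda) had 53.3 and 11.7 CPM (log2 -2.19, -2.63 to -1.77), against 81.5 to 189 CPM in labelled RNA. The unlabelled total of miR-146b-5p lay inside the labelled range and that of miR-676-3p below it, and both pulsed totals lay under it.

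miR-335-5p, encoded in an intron of the imprinted gene Mest (chr6:30741314-30741336, plus strand), had 456 and 152.5 CPM (log2 -1.58). miR-148a-3p, a repressor of Dnmt1 (chr6:51269829-51269850, minus strand), had 932 and 318 CPM (log2 -1.55). miR-132-3p, a target of CREB (chr11:75173723-75173744, plus strand), had 46.2 and 17.01 CPM (log2 -1.44). In pulsed cells the first lay inside its labelled range of 65.8 to 863 CPM and the others below theirs of 418 to 893 and 36.4 to 77.5 CPM.

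miR-34c-5p, a p53 target, had 328 and 124 CPM (log2 -1.40), both above the labelled maximum of 88.0 CPM. miR-99a-5p had 119 and 49.9 CPM (log2 -1.26) and miR-6540-5p 53.2 and 24.3 CPM (log2 -1.13). miR-199a-3p, a mesenchymal miRNA with gene copies at chr1:162217883-162217904 in an exon of Dnm3os and at chr9:21496498-21496519, had 16216 and 8028 CPM (log2 -1.01). It was the most abundant of these 20 miRNAs in both libraries.

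**Figure D2:**
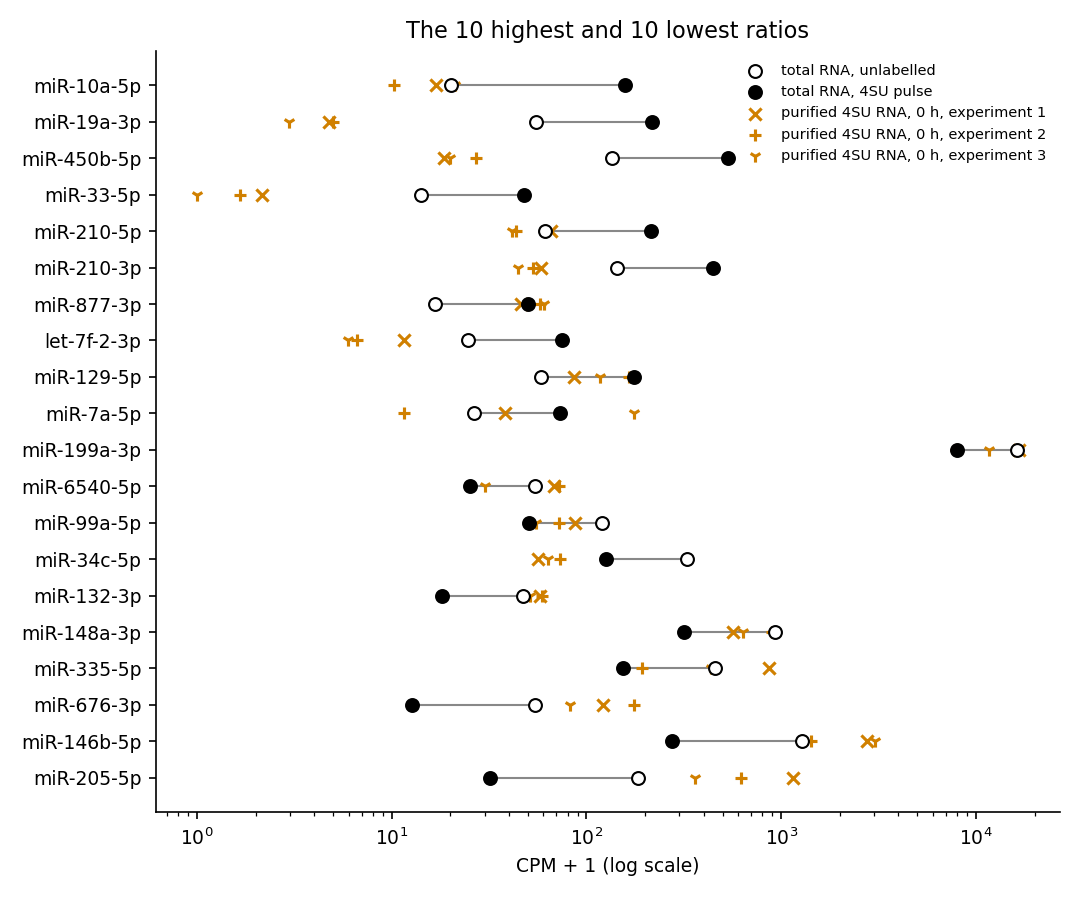
CPM + 1 (log scale) of the 10 members with the highest and the 10 with the lowest ratio; open and filled circles are total RNA without and with 4SU, joined by a line, and orange marks are the 3 purified libraries at 0 h of chase. The pulsed total of miR-10a-5p (156 CPM) lies to the right of all other marks in its row, and that of miR-205-5p (30.9 CPM) to the left.

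The let-7 family, guardians against growth programmes, split by arm. Its 9 guides with the seed GAGGUAG all lay below the median of the members: their log2 ratios ran from -0.44 (let-7f-5p, 43464 and 32118 CPM) to 0.03 (let-7g-5p, 3133 and 3194 CPM), with a median of -0.23 and none past 1.5-fold. With TMM 1 and with upper-quartile scaling 5 of the 9 were at least 1.5-fold lower. Of its 8 members from the 3p arm, 7 lay above that median and 5 were at least 1.5-fold higher, with a median of 0.63. Of all members 30.9% were higher. With either other scaling 2 of the 8 were at least 1.5-fold higher. let-7e-3p had 53.02 and 123 CPM (log2 1.22), whereas let-7e-5p of the same hairpin had 3740 and 3482 CPM (log2 -0.10). miR-98-3p had 105 and 184 CPM (log2 0.81) and miR-98-5p 1379 and 1303 CPM. The 3p members were the scarcer ones; the part of abundance in the split was not tested.

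The miR-30 family, which restrains mesenchymal programmes, lay highest among the larger families. Of its 11 members 6 were at least 1.5-fold higher and none lower, against 30.9% and 6.12% of all members. The median log2 ratio was 0.73, which is 0.38 above that of all members. miR-30d-3p had 111 and 248 CPM (log2 1.16), and miR-30a-3p at the low end 238 and 253 CPM (log2 0.08). Among the guides with the seed GUAAACA, miR-30e-5p had 5280 and 9479 CPM (log2 0.84) and miR-30a-5p a log2 ratio of 0.25. With TMM 2 and with upper-quartile scaling 1 of the 11 stayed past 1.5-fold.

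Of the 15 members of miR-17-92 and its paralogous clusters, which promote proliferation, 5 were higher and none lower (median 0.48), a share near the 30.9% of all members. The lowest, miR-17-3p, had 90.8 and 85.1 CPM (log2 -0.09). By locus and with total counts, 4 of 7 uniquely placed members of Mir17hg on chromosome 14 were at least 1.5-fold higher. None of 6 at the Mcm7 locus on chromosome 5 was, with log2 ratios from 0.08 to 0.49. With TMM miR-18a-5p (log2 0.55), miR-20a-5p and miR-92a-1-5p were within 1.5-fold. Of the 4, miR-19a-3p alone then stayed higher (log2 1.71). Of all 15, 2 were higher with TMM and 1 with upper-quartile scaling.

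In the group made up of miR-10, miR-125 and the miR-99 and miR-100 genes, 5 of 10 members were higher and 1 was lower, with a median of 0.59. Of all members 30.9% were higher. With TMM 2 of the 10 were higher and 1 lower, and with upper-quartile scaling 2 and 2. The group held the highest ratio of all members and also 1 of the 10 lowest. miR-99a-5p, from an intron of Mir99ahg (chr16:77598940-77598961, plus strand), was at -1.26 and miR-100-5p, from chr9:41531437-41531458 (plus strand), at 0.83, with 1489 and 2639 CPM. miR-99b-5p had 10028 and 15960 CPM (log2 0.67). Among members with a matched sequence, 22 seeds were shared, covering 69 members. With total counts, only ACCCGUA had values past 1.5-fold in both directions. With TMM and upper-quartile scaling miR-100-5p was at 0.54 and 0.42, within 1.5-fold. miR-99b-5p, which had a lower ratio, was then within it too. miR-99a-5p and miR-100-5p differ at 1 position outside the seed.

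Of the members with a matched sequence, 11 pairs of equal length differ at 1 position. Members without one, such as miR-23b-3p, could not be compared in this way. The log2 ratios of such pairs differed by 0.05 to 2.08, with a median of 0.30. The largest difference was that of miR-99a-5p and miR-100-5p, and the next, 1.12, that of miR-19a-3p and miR-19b-3p, which had 386 and 712 CPM (log2 0.88). The sources used here do not say how reads that match such pairs were assigned, so a single member of a pair is less certain than their sum.

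In the families of miR-130 with miR-301 and of miR-148 with miR-152, 3 of 11 members were higher and 1 lower (median 0.37). The share of higher ones is near the 30.9% of all members. With TMM 1 was higher and 2 lower, and with upper-quartile scaling 0 and 2. miR-148a-3p had the low value given above, while miR-148b-3p with the same seed had 1760 and 2401 CPM (log2 0.45) and miR-152-3p 383 and 274 CPM (log2 -0.48). miR-148b-5p was highest, with 166 and 321 CPM (log2 0.95).

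The sign of many list medians depended on the scaling: 6 of 23 were below 0 with total counts, 13 with TMM and 15 with upper-quartile scaling. The miR-181 family, known from lymphocyte signalling, had the lowest median of the larger lists, -0.42. Its 4 guides with the seed ACAUUCA ran from -0.33 to -0.62. miR-181d-5p had 292 and 190 CPM and was the only one past 1.5-fold, where 6.12% of all members were lower. miR-181a-1-3p was at 0.49. With TMM and upper-quartile scaling 5 of the 6 were at least 1.5-fold lower.

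The mesenchymal list had none higher and 3 lower of 14 (median -0.20), against 30.9% and 6.12% of all members. The 3 were miR-199a-3p, miR-199a-5p with 2336 and 1527 CPM (log2 -0.61), and miR-143-5p with 77.8 and 49.5 CPM (log2 -0.65). miR-31-3p was highest with 93.7 and 122 CPM (log2 0.38), a sign that turns with upper-quartile scaling. Lower counts were 5 and 8 of the 14 with TMM and upper-quartile scaling.

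The list of miRNAs responsive to NF-kB had 1 of 8 lower, miR-146b-5p, and none higher (median -0.23), against 6.12% and 30.9% of all members. With TMM 3 and with upper-quartile scaling 5 of the 8 were lower. The highest was miR-125b-5p with 13574 and 19957 CPM (log2 0.56). miR-155-5p, an inflammatory miRNA, had 297 and 238 CPM (log2 -0.32). miR-146a-5p, whose seed is that of miR-146b-5p in standard annotation, fell outside the rule with 72 counts without and 14 with 4SU.

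Of the 13 members on the p53 list 3 were higher and 2 lower (median 0.07), against 30.9% and 6.12% of all members. With TMM 2 were higher and 3 lower, and with upper-quartile scaling 1 and 3. miR-34c-5p was lowest, as given above, while miR-34a-5p had 70.3 and 89.9 CPM (log2 0.35). miR-192-5p had 592 and 1086 CPM (log2 0.88), miR-194-5p 70.5 and 107 CPM (log2 0.60), and miR-16-1-3p 11.9 and 23.6 CPM (log2 1.00). The list thus held members at both ends, and its median lay 0.29 below that of all members.

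**Figure D3:**
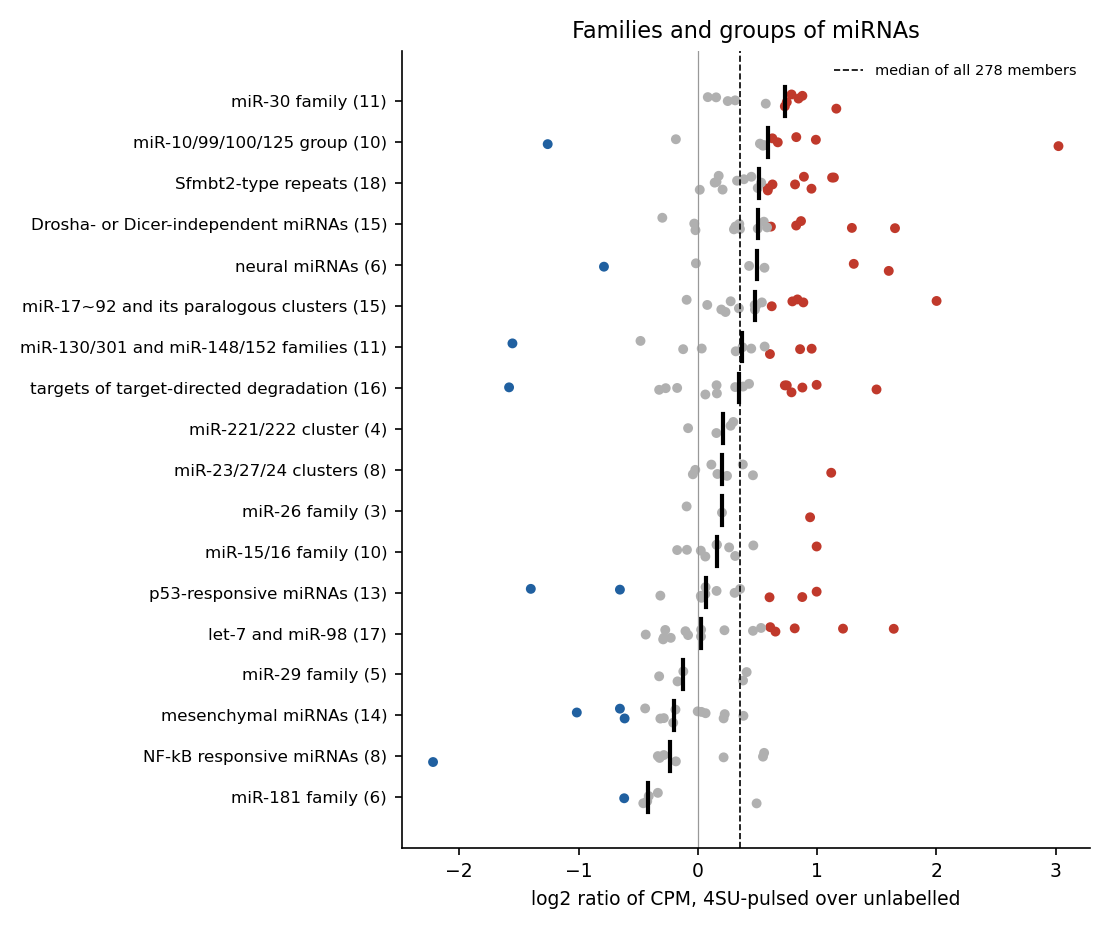
Log2 ratio of CPM (4SU-pulsed over unlabelled total RNA) of the members of each list with 3 or more members; points are miRNAs (red at least 1.5-fold higher, blue at least 1.5-fold lower), black bars the list medians, the dashed line the median of all 278 (0.35), and numbers in brackets the members. The miR-30 family has the highest median (0.73) and the miR-181 family the lowest (-0.42).

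Other lists lay nearer the middle, beside 30.9% higher and 6.12% lower of all members. Repeat-derived miRNAs of the Sfmbt2 type had 8 of 18 higher and none lower (median 0.52), from 0.02 for miR-467d-5p to 1.14 for miR-466h-5p; their paralogs share sequence, so single members are uncertain. With TMM 4 and with upper-quartile scaling 2 of these were higher. miRNAs made without Drosha or without Dicer had 5 of 15 higher (median 0.50), a share near the 30.9% of all members and 2 of 15 with either other scaling, with miR-877-3p at the top and miR-320-3p at the bottom (454 and 370 CPM, log2 -0.30). miRNAs reported to be degraded on highly complementary targets had 6 of 16 higher and 1 lower (median 0.35). This became 3 and 2 with TMM, and 2 and 3 with upper-quartile scaling. The neural list had 2 of 6 higher, a share near that of all members, and 1 lower, miR-218-5p, with 337 and 196 CPM (log2 -0.79). These neural counts were the same with each scaling.

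In the miR-15/16 family, brakes on the cell cycle, 1 of 10 was higher (median 0.16), against 30.9% of all members. In the miR-23/27/24 clusters it was 1 of 8 (median 0.20), miR-27a-5p at 1.12. None of the 4 members from miR-221 and miR-222 and none of the 5 of the miR-29 family, which represses collagens, passed 1.5-fold. The medians of the lists of miR-15/16, of miR-23/27/24 and of the miR-221 pair become negative with TMM and with upper-quartile scaling. Of 23 lists with members, 9 had a median above that of all members, which no scaling can change.

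Within a hairpin the arms are compared in the same library, so that scaling cancels. Both arms were members for 68 hairpins, and the major arm was taken as that with more counts in the 21 labelled libraries, which enter neither side. The minor arm gained on the major arm in 46 hairpins and lost in 22. The median change of log2(minor/major) was 0.28, with quartiles of -0.04 and 0.51, and 14 gained and 5 lost at least 1.5-fold. Minor arms took 2.70% of the counts of these hairpins without and 3.38% with 4SU. Calls of single arms, unlike this change, depend on the scaling. With total counts, 30 minor and 8 major arms were at least 1.5-fold higher, and 4 and 2 lower, beside 30.9% and 6.12% of all members. Both arms were then higher in 6 hairpins and lower in 2, and in none did the arms pass 1.5-fold in opposite directions.

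The change was smaller with other definitions. It was 0.13 when the major arm was taken from unlabelled total RNA, where 8 of the 68 hairpins have the other arm as the major. The minor arm then gained in 38 of the 68 hairpins. It was 0.17 with at least 200 counts per arm, and 0.15 with the canonical sequence alone. Outside these 8 hairpins the minor arms are also the scarcer ones in unlabelled total RNA, and ratios were higher at low abundance, as given above. The part of this in the arm change was not tested.

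miR-877 changed most: its 3p arm had 11.4% of the hairpin's counts without 4SU (95% interval 9.33 to 13.6%) and 29.1% with it (25.9 to 32.5%). In let-7e the minor arm took 1.40 and 3.42%. In miR-708 (chr7:96249450-96249517, intron of Tenm4) it took 50.6 and 70.0%. In miR-467d it took 19.5 and 34.3%, and in miR-182, where it was nearly absent, 0.0243 and 0.0507%. In each of these the intervals of both libraries were apart, and the major arm was within 1.5-fold with total counts.

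The opposite was seen most in miR-335, whose 5p arm took 44.4% (43.2 to 45.6%) of the hairpin's counts without and 24.3% (22.7 to 25.9%) with 4SU. The 3p arm had 572 and 475 CPM. Its log2 ratio of -0.27 also lay below the median of 0.35 of all members, but less far than the -1.58 of miR-335-5p. The minor arm of miR-301a took 1.82 and 0.930%, that of miR-342 11.8 and 7.00%, that of miR-30e 2.34 and 1.46%, and that of miR-143 0.0839 and 0.0522%. For miR-301a and miR-30e the major arm was at least 1.5-fold higher with total counts and the minor arm within that range. With TMM both major arms were within it as well.

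**Figure D4:**
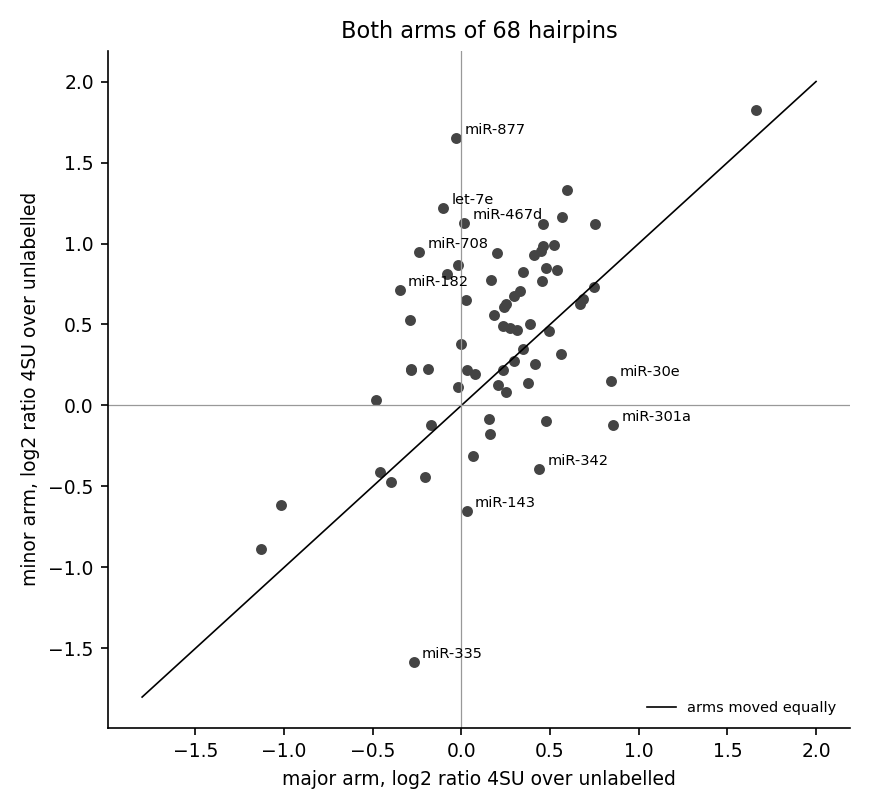
Log2 ratio (4SU-pulsed over unlabelled total RNA) of the major arm (horizontal axis) and the minor arm (vertical axis) of 68 hairpins; each point is a hairpin and the line marks equal ratios. More points lie above the line (46) than below it (22), with miR-877 farthest above and miR-335 farthest below.

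The table divides the counts of each miRNA into isoform classes: the canonical sequence, trimmed and templated longer forms, and forms with added bases that the genome does not hold. Such 3′ tails are added by nucleotidyl transferases, and A and U tails have been tied to stability and decay. The file's total of non-templated 3′ additions equalled the sum of its A, C, G, U and mixed forms in 21000 of 21000 cells; the sources used here do not say what mixed means. In unlabelled and pulsed cells, the canonical form took 54.4 and 52.3% of members' counts, templated 3′ extensions 18.8 and 19.1%, and trimmed forms 14.4 and 14.0%. Mixed 3′ additions took 4.49 and 5.99%, A 3.18 and 3.65%, U 2.71 and 2.83%, and C 1.55 and 1.67%. At these depths the intervals of each of these shares were under 0.1 points wide and apart between the libraries.

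The higher share of mixed additions came mostly from a single miRNA. miR-92a-3p had 53.3% of its own counts in this class without and 59.7% with 4SU, and it supplied 1.32 of the 1.498 points by which the class was higher. Without miR-92a-3p the class was higher by 0.21 points. In the labelled libraries the class took 4.07 to 9.32%, which spans both total libraries.

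A tails had a higher share after the pulse in most abundant miRNAs. Of 113 members with at least 1000 counts in both libraries, 81 had a higher share of A tails after the pulse and 23 a lower one, and the intervals were apart in 35 and 3. miR-486a-5p had 20.2 and 32.9% (intervals 18.1 to 22.4% and 30.1 to 35.8%), miR-28a-3p 22.2 and 27.7%, and miR-128-3p 11.5 and 16.4%. The lower ones included miR-106b-3p with 20.3 and 16.3%. The difference of 0.48 points over all counts was 0.92 without the 10 most abundant miRNAs and 0.59 with every miRNA weighted alike. Both total libraries lay below the labelled range of 3.91 to 4.90%.

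U tails went the other way in most miRNAs, although their share of all counts was 0.12 points higher. Of the 113, 27 had a higher and 73 a lower share, with intervals apart in 4 and 17. miR-322-3p had 51.9 and 47.9%, miR-221-3p 13.1 and 9.61%, and miR-486a-5p 17.1 and 12.1%. miR-351-5p, with 9.39 and 13.1%, was the largest exception. For miR-486a-5p, then, A tails were higher and U tails lower in the same library.

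Trimmed forms had a lower share in 78 and higher in 33 of the 113, with intervals apart in 42 and 10. miR-425-5p had 59.1% trimmed counts without and 39.2% with 4SU, and templated 3′ extensions of 26.2 and 46.3%. miR-351-5p had 60.5 and 43.2% trimmed. miR-149-5p moved in the other direction, with 35.7 and 56.8% trimmed and 48.2 and 28.2% canonical counts. Both total libraries lay below the 15.1 to 23.9% of the labelled ones.

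The canonical share over all counts was 2.11 points lower, yet the miRNAs were evenly split, with 56 higher and 56 lower of the 113. miR-22-3p, 97.8 and 97.7% canonical, accounts for -2.31 points through its smaller part of all counts. Without the 10 most abundant miRNAs the share was 0.12 points higher, and with equal weights 0.57 points higher. miR-92b-3p had the largest gain in its own canonical share, with 31.8 and 49.8%. The C class was carried by miR-21a-5p, with 10.9 and 14.1% of its counts.

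**Figure D5:**
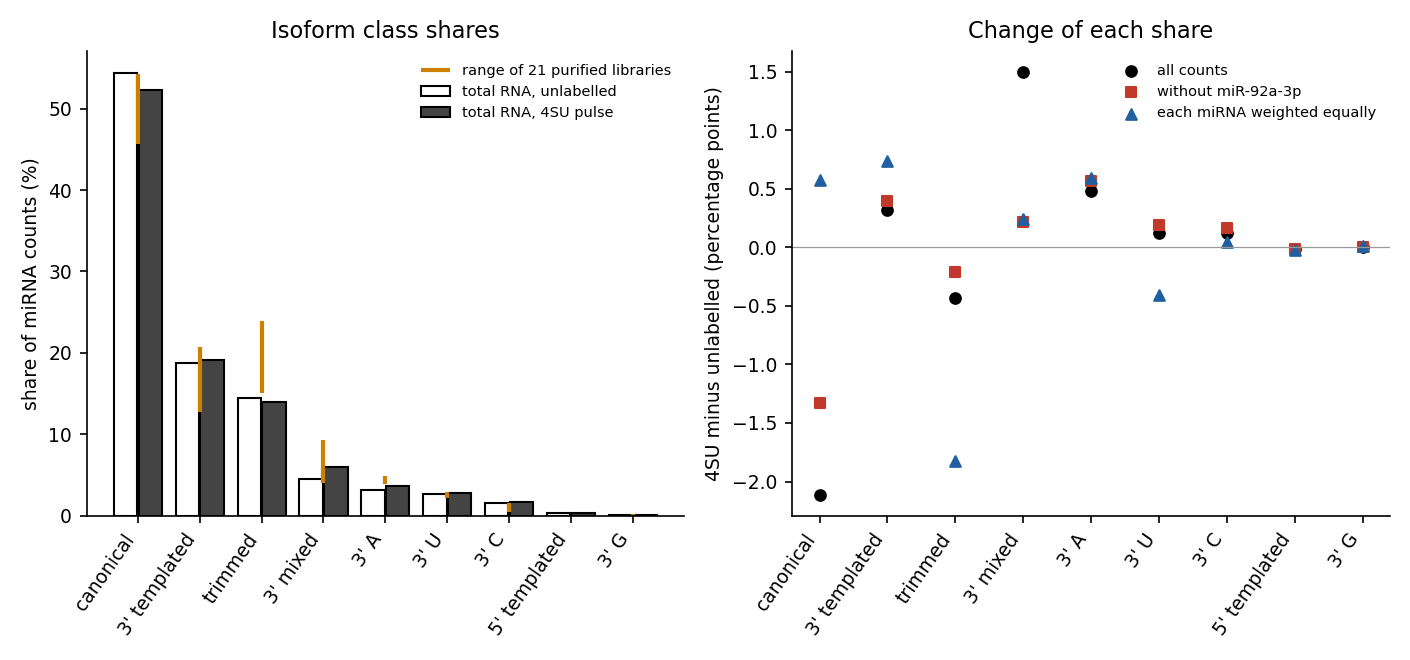
Left, share of members' counts (%) in each isoform class in total RNA without (white) and with (grey) 4SU, with the range of the 21 purified libraries as orange lines; right, the difference between the total libraries in percentage points over all counts, without miR-92a-3p, and with each miRNA weighted equally. The difference in the mixed class drops from 1.498 to 0.21 points without miR-92a-3p, and that of the canonical class turns from -2.11 to 0.57 with equal weights.

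Since 4SU replaces uridine, the ratio was set beside base content. Over the 231 members with a sequence, which share both libraries and differ in abundance, Pearson's r of the log2 ratio with the percentage of U was -0.08 and Spearman's rho -0.14. The members richest in U, with 34.8 to 50.0%, had a median log2 ratio of 0.22, and those poorest in it, with up to 22.7%, one of 0.44. For the percentage of G and C the values were 0.10 and 0.15. These are weak relations across miRNAs of 1 pair of libraries.

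Neighbouring miRNA genes were compared by position. Among those within 10 kb of each other on a strand, the group at chrX:53048044-53054327 (minus strand), with miR-450b, miR-542, miR-351 and miR-322, had 3 of 5 members at least 1.5-fold higher and log2 ratios from -0.17 to 1.98. The group in Spaca6 (chr17:17830194-17830876, plus strand), with miR-99b, let-7e and miR-125a, had 4 of 6 higher, and let-7e-5p as the lowest. The miR-181c/d group at Nanos3 had 1 of 3 lower. These counts are with total counts, where 30.9% of all members were higher and 6.12% lower. With TMM miR-99b-5p and miR-99b-3p were within 1.5-fold and all 3 of the miR-181c/d group lower. With upper-quartile scaling miR-542-3p was within 1.5-fold. Most other groups held at most 1 member past 1.5-fold. Values thus differed within each of the first and second groups.

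The rule cut close to some of these. Just inside it were miR-669d-5p with 50 and 53 counts, miR-182-3p with 51 and 59, and miR-193a-5p with 53 and 52. Just outside were miR-148a-5p with 71 and 49, miR-218-1-3p with 171 and 48, and miR-466b-5p with 47 and 52. At least 50 counts in only the unlabelled library were found for 15 miRNAs and in only the pulsed one for 8. The former included miR-340-5p, with 336 and 37 counts, and miR-455-5p, with 201 and 46. The rule thus left out a ratio of 0.156, that of miR-340-5p, below the 0.170 of miR-205-5p, the lowest member. Those that met the rule in the pulsed library only included the passengers let-7a-2-3p, with 14 and 57, and miR-26a-2-3p, with 32 and 91.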

How the data were processed

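The authors deposited whole-number read counts per isoform class of each mature miRNA, 1 column per library. Per the submitters' processing notes, bases were called with CASAVA 1.8.0. Aligner, annotation, handling of multiply matching reads and isoform definitions were not given in the sources used here. Of 7129 entries, 1 duplicate was dropped, and entries that repeat others (equal in 21000 of 21000 and 4632 of 4632 cells) were used once. Counts of 14 of 20 classes were summed per miRNA in Python 3.11.15 (pandas 2.3.3) and divided by the library total. A level of 3 counts equals 0.468 CPM without and 0.663 CPM with 4SU. Ratios and shares have exact Clopper-Pearson 95% intervals (SciPy 1.17.1), checked on simulated data. With 1 library per group no test was run, and edgeR 4.0.16 (R 4.3.3) gave only TMM and upper-quartile factors. A miRNA was counted as higher or lower past 1.5-fold. Positions and host genes are from the GRCm38 annotation.

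Named are the 10 highest and 10 lowest ratios whose interval excludes 1, the 10 most abundant miRNAs, the ends of each list and shared seed, the 5 largest arm changes each way and up to 3 examples each way per isoform class; further names were chosen after their values were seen. Members and lists were chosen with earlier results of these data known. Neighbour groups, G and C content, near-identical pairs, centring on the median and leaving out miR-92a-3p were added after seeing the data. Alternatives changed scaling, count minimum, threshold, pseudocount (1 CPM), depth and weighting.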

Additional observations from a re-analysis of the deposited data

How the results depend on the processing

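No paired analysis was possible because each total RNA group has 1 library. The counts of 86 higher and 17 lower miRNAs became 41 and 40 with TMM, 29 and 51 with upper-quartile scaling, 49 and 34 with totals that leave out the 10 most abundant miRNAs, 34 and 46 when centred on the median (added after seeing the data) and 27 and 10 at 2-fold; 48 were higher with at least 200 counts. A minimum of 20 counts, a pseudocount, thinning and the canonical class alone kept both counts within 1.5 times, as did 200 counts for the lower ones. The 20 miRNAs with the most extreme ratios stayed past 1.5-fold in their direction in all 131 values that a setting moved; 9 of them, miR-10a-5p, miR-205-5p and miR-146b-5p included, had too few canonical counts for that setting. The median arm change of 0.28 became 0.13 with the major arm from unlabelled RNA, 0.17 at 200 counts and 0.15 with the canonical class. Without the 10 most abundant miRNAs, with equal weights and without miR-92a-3p, A tails differed by 0.92, 0.59 and 0.56 points, mixed additions by 0.17, 0.24 and 0.21, and the canonical share by 0.12, 0.57 and -1.33, the first and second of these reversed from -2.11. For the scaling rows a constant shift of all ratios makes the change; otherwise the cause was not tested, apart from the contributions of miR-92a-3p and miR-22-3p. Of 23 lists 9 had a median above that of all members, and 8 at 200 counts. With single libraries the error between replicates is unknown for every comparison.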
